A study of Mus musculus with 2 samples.

Results

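Mir770, Mir673, Mir493 and Mir370 are 4 of the 2202 mouse microRNA genes counted in these data, and 4 of the 58 that lie on the plus strand between the start of Meg3 and the end of Mir410 in the imprinted Dlk1-Dio3 domain of chromosome 12. They were chosen by their place at or beside Meg3 (Mir770, Mir673, Mir493) and in Rian (Mir370), not by their values. Earlier results of these data were known when the choice was made. Their levels in mouse hippocampus, the brain region of memory formation, spanned a wide range. By reads that could be given to a gene, Mir770 averaged 17013 CPM and stood 11th of all microRNA genes. It was followed among the 4 by Mir370 at 2893 CPM, Mir673 at 465 CPM and Mir493 at 60.8 CPM. The 2 libraries differed in opposite directions at the leading pair, with Mir770 2.30-fold lower and Mir370 2.54-fold higher in replicate 2 than in replicate 1.

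The libraries were biological replicates 2 and 1 of a single group. Both came from wild-type female mouse tissue of strain B6NCrl, labelled as a layer of hippocampus with no layer named. The labels give no age and no treatment, they trace both libraries to the same donor record under separate biosample records, and they do not say whether separate animals were used, so the spread between the libraries may be technical. With no second group, levels were described within this tissue and the libraries were set against each other. Replicate 2 held 5901107 counts on the sense strand of microRNA genes and replicate 1 held 6713867. A further 45.9% of reads in replicate 2 and 43.9% in replicate 1 mapped to several places and were given to no gene. Ranks and shares therefore rest on the reads that were given to a gene, and genes with repeated sequence can rank too low. Levels are given in CPM, a gene's share of the sense counts on all microRNA genes, times 1000000.

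At the Dlk1-Dio3 domain the maternal chromosome expresses Meg3, Rian and Mirg, long noncoding RNAs, together with many microRNAs and small nucleolar RNAs, while the paternal chromosome expresses the protein-coding genes Dlk1, Rtl1 and Dio3. A microRNA is cut from a hairpin precursor by Drosha and Dicer. Either strand of the resulting duplex, the 5p or the 3p arm, can be loaded into an Argonaute protein, where its seed pairs with target messenger RNAs. Many microRNAs of this domain are known as brain-enriched.

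Positions below are on GRCm38, the assembly called mm10 in the deposited notes, and annotation is GENCODE M21. Mir770 lies at chr12:109563692-109563785. It is within Meg3, in exon 5 of 1 transcript and in an intron of 3 others that span it. Mir673 lies at chr12:109571990-109572080, starting 263 bases beyond the annotated end of Meg3. Mir493 lies at chr12:109580233-109580315, 8506 bases beyond that end and in no annotated transcript of Meg3 or Rian. Mir370 lies at chr12:109618258-109618336, in an intron of the 2 Rian transcripts, of 20 annotated, that span it. The label therefore held for Mir770 and Mir370 as host genes, and Mir673 and Mir493 were beside Meg3 rather than in it. All 4 are on the plus strand, as are Meg3 and Rian.

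The hairpins show where the counted reads can come from, since each deposited count sums over a whole hairpin. They are printed 5′ to 3′ from the RefSeq table for GRCm38.p6, with the annotated 5p and 3p arms in capitals.

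Mir770: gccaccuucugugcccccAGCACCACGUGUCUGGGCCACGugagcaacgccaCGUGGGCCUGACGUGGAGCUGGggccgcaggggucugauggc
Mir673: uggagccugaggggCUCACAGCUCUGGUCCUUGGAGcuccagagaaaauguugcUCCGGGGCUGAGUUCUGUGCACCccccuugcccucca
Mir493: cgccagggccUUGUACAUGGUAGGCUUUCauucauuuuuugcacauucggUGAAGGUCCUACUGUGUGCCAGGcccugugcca
Mir370: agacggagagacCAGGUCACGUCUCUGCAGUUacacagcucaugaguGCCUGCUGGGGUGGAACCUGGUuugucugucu

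The Mir770 hairpin is 94 bases long with 70.2% G and C, a higher share than in 97.0% of the 2202 hairpins, whose median was 50.8%. The other hairpins had 61.5% (Mir673, 91 bases), 53.0% (Mir493, 83 bases) and 55.7% (Mir370, 79 bases). Predicted folding energies were -58.2 kcal per mol for Mir770, -42.3 for Mir673, -45.0 for Mir493 and -41.3 for Mir370, the longest and most GC-rich hairpin having the lowest energy. The stretches between the annotated arms, not taken from the predicted folds, were 12, 18, 21 and 15 bases long in the same order. The longest stretch that any of the 4 shares with a hairpin elsewhere in the annotation was 13 bases for Mir770, 12 for Mir673 and 14 for Mir493 and Mir370. By contrast 1135 of the 2202 genes share 18 or more bases with another hairpin, and reads inside such a stretch can map to several places.

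The mature arms carry 8 different seeds. They are printed 5′ to 3′ with the seed, bases 2 to 8, in capitals, because the seed pairs with target messenger RNAs. Targets were not examined, so the seeds do not show whether the members have targets in common.

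miR-770-5p: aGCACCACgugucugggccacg
miR-770-3p: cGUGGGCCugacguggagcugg
miR-673-5p: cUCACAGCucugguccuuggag
miR-673-3p: uCCGGGGCugaguucugugcacc
miR-493-5p: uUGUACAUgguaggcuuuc
miR-493-3p: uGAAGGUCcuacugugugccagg
miR-370-5p: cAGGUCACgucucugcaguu
miR-370-3p: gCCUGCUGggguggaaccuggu

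No seed was common to 2 members. Between hairpins of different members the longest identical stretch on the same strand was 8 bases, for Mir770 with Mir673 and for Mir673 with Mir370. Among the 1738 mature sequences of the RefSeq table, which matched 968 of the 2202 genes by symbol, 2 others had a seed of a member. The seed of miR-673-5p recurs in miR-6985-3p and the seed of miR-370-5p recurs in miR-1193-3p, shown here to make the shared bases visible.

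miR-6985-3p: cUCACAGCcaccuccucacag
miR-1193-3p: uAGGUCACccguuuuacuauc

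Mir1193 is itself a gene of the Dlk1-Dio3 array, with 49.1 CPM in replicate 2 and 52.6 CPM in replicate 1. Mir6985 on chromosome 19 had 6.78 CPM in replicate 2 and 4.62 CPM in replicate 1. Both stood far below the member whose seed they carry, and the counts do not separate arms, so the level of each seed in the tissue is not given by these values.

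Mir770, the gene inside Meg3, was counted 60800 times in replicate 2 and 159270 times in replicate 1. These are 10303 CPM in replicate 2 (exact 95% interval 10222 to 10385) against 23723 CPM in replicate 1 (23608 to 23838), the intervals covering counting error only. Mir770 alone thus supplied 1.03% of the microRNA counts of replicate 2 and 2.37% of those of replicate 1. Its rank among all genes was 17 in replicate 2 and 9 in replicate 1. The mean was 17013 ± 9489 CPM (SD, n = 2), a coefficient of variation of 55.8%.

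Mir370, the gene inside Rian, had 24487 counts in replicate 2 and 10987 in replicate 1, or 4150 CPM in replicate 2 (exact 95% interval 4098 to 4202) against 1636 CPM in replicate 1 (1606 to 1667). Its library with the higher level was therefore the one in which Mir770 was lower. The rank of Mir370 was 36 in replicate 2 and 71 in replicate 1, and 49 by its mean of 2893 ± 1777 CPM (SD, n = 2). The coefficient of variation was 61.4%, the largest of the 4 genes.

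Mir673, just beyond the end of Meg3, had 2390 counts in replicate 2 and 3523 in replicate 1. Its levels were 405 CPM (exact 95% interval 389 to 422) in replicate 2 and 525 CPM (508 to 542) in replicate 1. With a mean of 465 ± 84.7 CPM (SD, n = 2) and a coefficient of variation of 18.2% it held nearly the same rank in both libraries, 117 in replicate 2 and 121 in replicate 1.

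Mir493, farther beyond Meg3, was the least abundant. It had 395 counts in replicate 2 and 367 in replicate 1, or 66.9 CPM in replicate 2 (exact 95% interval 60.5 to 73.9) against 54.7 CPM in replicate 1 (49.2 to 60.6), with a mean of 60.8 ± 8.68 CPM (SD, n = 2). The coefficient of variation, 14.3%, was the smallest of the 4 genes. Its rank was 199 in replicate 2 and 219 in replicate 1, near the middle of the 466 genes that reached a mean of 10 counts, 54.5% of which had its mean level or less.

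**Figure D1:**
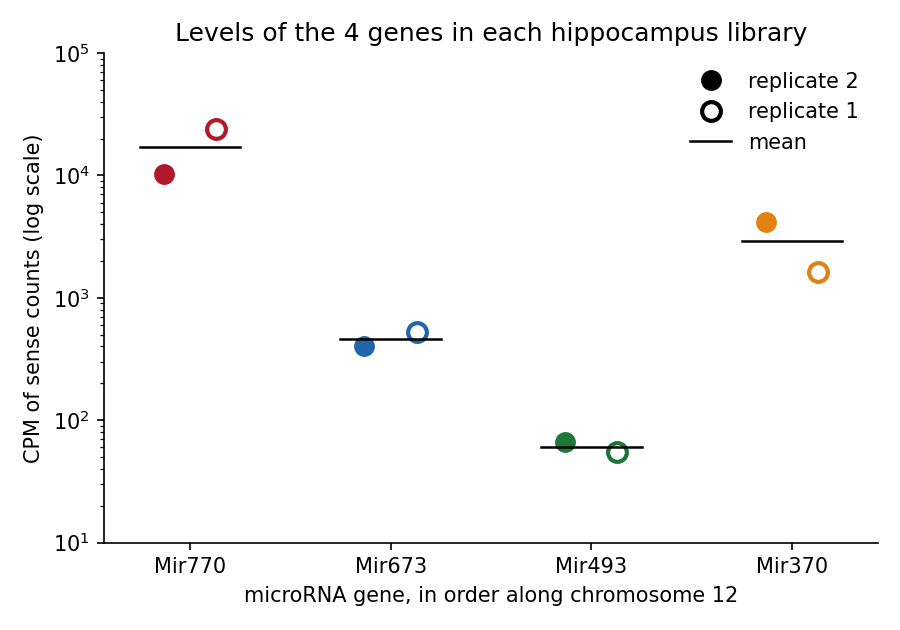
CPM of sense counts, on a log scale, of Mir770, Mir673, Mir493 and Mir370, with replicate 2 as filled points, replicate 1 as open points and the mean as a bar. The pairs of points do not overlap between genes, Mir770 lies lower in replicate 2 (10303 CPM) than in replicate 1 (23723 CPM), and Mir370 lies higher in replicate 2 (4150 CPM) than in replicate 1 (1636 CPM).

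The order Mir770, Mir370, Mir673, Mir493 held in both libraries. No gene's range over the libraries touched that of its neighbour in the order. The gap in mean level was 14120 CPM between Mir770 and Mir370, 2428 CPM between Mir370 and Mir673 and 404 CPM between Mir673 and Mir493, each larger than the SD of either gene of the pair. With 2 libraries no test between genes was made. MicroRNA reads cover about a whole mature arm and were not divided by length. Per hairpin base the mean levels were 181 CPM for Mir770, 36.6 for Mir370, 5.11 for Mir673 and 0.733 for Mir493, in the same order.

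**Figure D2:**
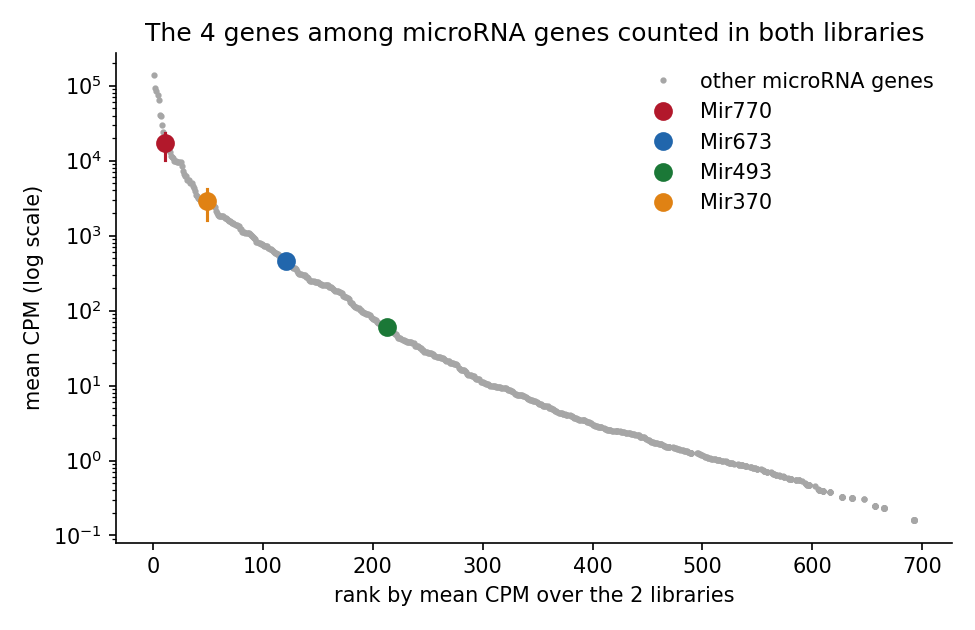
Mean CPM over the 2 libraries, on a log scale, against rank for the microRNA genes with a count in both libraries (grey), with the 4 genes in colour and vertical lines joining their library values. The 4 genes stand at ranks 11 (Mir770), 49 (Mir370), 121 (Mir673) and 213 (Mir493).

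None of the 4 genes had a read on the opposite strand in either library. A count of 0 allows up to 0.508 CPM in replicate 2 and 0.447 CPM in replicate 1, taking 3 counts as the limit. Counts made without regard to strand equalled the sense counts at all 4, so no reads there were lost to a gene on the other strand. The neighbour Mir337 shows the other case. It had 8585 sense counts in replicate 2 and 13453 in replicate 1, but 0 in replicate 2 and 3 in replicate 1 without strand, because Mir3544 is annotated opposite to it.

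The genes nearest in level over both libraries were found by the summed distance in log2(CPM + 1), over 2 libraries and 1 tissue. For Mir770 they were Mir652 (11757 CPM in replicate 2, 18551 CPM in replicate 1) and Mir132, known as an activity-induced neuronal microRNA (12539 CPM in replicate 2, 15073 CPM in replicate 1). For Mir370 they were Mir874 (3696 CPM in replicate 2, 2165 CPM in replicate 1) and Mir434 of the same locus (3126 CPM in replicate 2, 2717 CPM in replicate 1). For Mir673 they were Mir672 (402 CPM in replicate 2, 461 CPM in replicate 1) and Mir467d (397 CPM in replicate 2, 650 CPM in replicate 1), the counts of Mir467d being uncertain because 60 or more of its bases recur in other hairpins. For Mir493 they were Mir29b-1 (62.7 CPM in replicate 2, 56.3 CPM in replicate 1), which shares 25 bases with another hairpin, and Mir148b (75.9 CPM in replicate 2, 59.0 CPM in replicate 1). The log2 ratio of replicate 2 over replicate 1 was -0.66 for Mir652 against -1.20 for Mir770. It was 0.77 for Mir874 against 1.34 for Mir370. The nearest genes were picked from these same levels, so the comparison does not measure how unusual the members are.

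Within the locus Mir770 was second only to Mir127, in both libraries. Mir127, a microRNA antisense to Rtl1, had 48439 CPM in replicate 2 and 79691 CPM in replicate 1. By mean level the next genes were Mir382 (6970 CPM in replicate 2, 12723 CPM in replicate 1), Mir433 (8041 CPM in replicate 2, 11407 CPM in replicate 1), Mir541 (5772 CPM in replicate 2, 7416 CPM in replicate 1) and Mir411 (3583 CPM in replicate 2, 6559 CPM in replicate 1). Mir370 was 7th of the locus in replicate 2 and 15th in replicate 1, Mir673 was 24th in both, and Mir493 was 37th in replicate 2 and 40th in replicate 1. The 58 genes summed to 11.3% of all microRNA counts in replicate 2 and 17.2% in replicate 1. Of these sums Mir770 made up 9.09% in replicate 2 and 13.8% in replicate 1, and Mir370 3.66% in replicate 2 and 0.95% in replicate 1. The 4 genes together made up 13.2% of the locus in replicate 2 and 15.1% in replicate 1.

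Neighbouring genes had very different levels. Mir1906-1, the gene before Mir770 and also inside Meg3, had 0 counts in both libraries, but 60 or more of its bases recur in another hairpin, so its reads can be among those given to no gene. Counts of 0 in both libraries were also found for Gm23912 and Mir882, the genes on either side of Mir370, the first of which lies within Rian as well. These share 14 and 12 bases with another hairpin. Mir337, next after Mir493, had 1455 CPM in replicate 2 and 2004 CPM in replicate 1, many times the level of Mir493. Going away from the start of Meg3, the mean level was lower at each step through Mir770, Mir673 and Mir493. In all, 49 of the 58 genes reached a mean of 10 counts, all 4 members among them, and 6 had 0 counts in both libraries.

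**Figure D3:**
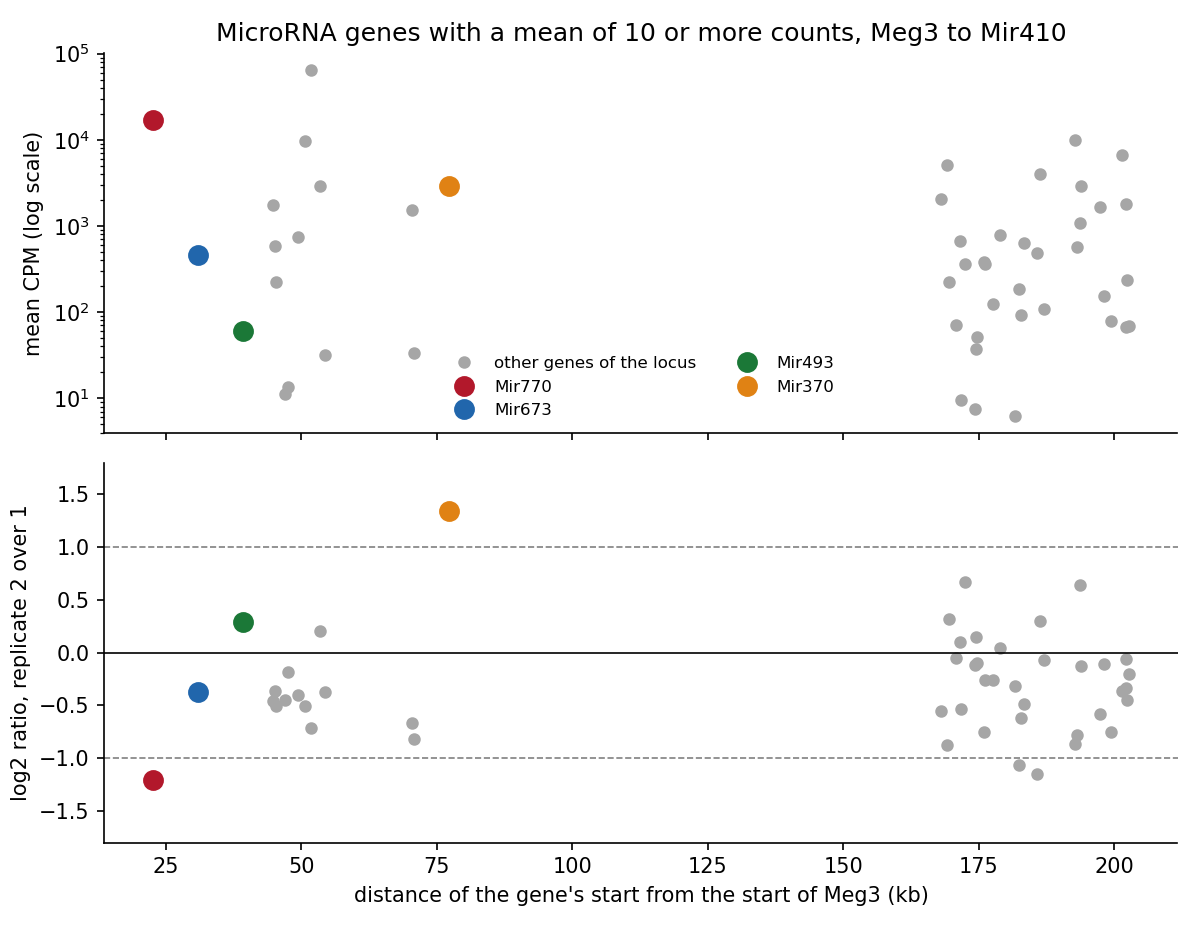
Mean CPM (top, log scale) and log2 ratio of replicate 2 over replicate 1 (bottom) against distance from the start of Meg3 for the 49 locus genes that reached a mean of 10 counts, with the 4 genes in colour and dashed lines at 2-fold. Mir770 has the lowest ratio (-1.20) and Mir370 the highest (1.34), and most other genes lie below 0.

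The libraries were compared gene by gene with a 2-sided Fisher exact test of sense counts, adjusted by Benjamini-Hochberg over all 466 genes that reached a mean of 10 counts. It asks whether 2 libraries of the same group differ by more than counting error and says nothing of conditions or animals. Mir770 and Mir673 were lower and Mir493 and Mir370 higher in replicate 2 by this test. At an adjusted p of 0.05, 39.5% of all tested genes were lower and 18% higher in replicate 2, so that passing the test does not set the 4 genes apart. Mir770 was 2.30-fold lower in replicate 2 (exact 95% interval 2.28 to 2.32), a log2 ratio of -1.20, and Mir370 was 2.54-fold higher (2.48 to 2.59), a log2 ratio of 1.34. For these genes p lay below the smallest number the software holds. Mir673 was 1.30-fold lower (1.23 to 1.37, Fisher exact test, adjusted p = 3.18e-22), a log2 ratio of -0.37, and Mir493 was 1.22-fold higher (1.06 to 1.42, adjusted p = 0.0111), a log2 ratio of 0.29.

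A size rule of 2-fold separated the 4 genes. Mir770 passed it in the lower direction, as did 10.7% of tested genes, and Mir370 in the higher direction, as did 4.51%. Mir673 and Mir493 stayed within 2-fold, as did 395 of the 466 tested genes. Ratios larger in size than that of Mir770 were found at 9.66% of tested genes, and than that of Mir370 at 7.30%. The median log2 ratio over all tested genes was -0.18 with CPM as the scale and 0.02 with TMM, the trimmed-mean scaling of edgeR. Relative to the median on the CPM scale, Mir770 stood at -1.02, Mir673 at -0.19, Mir493 at 0.47 and Mir370 at 1.52. Past 2-fold, 50 genes were lower and 21 higher on the CPM scale, against 33 lower and 30 higher with TMM.

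**Figure D4:**
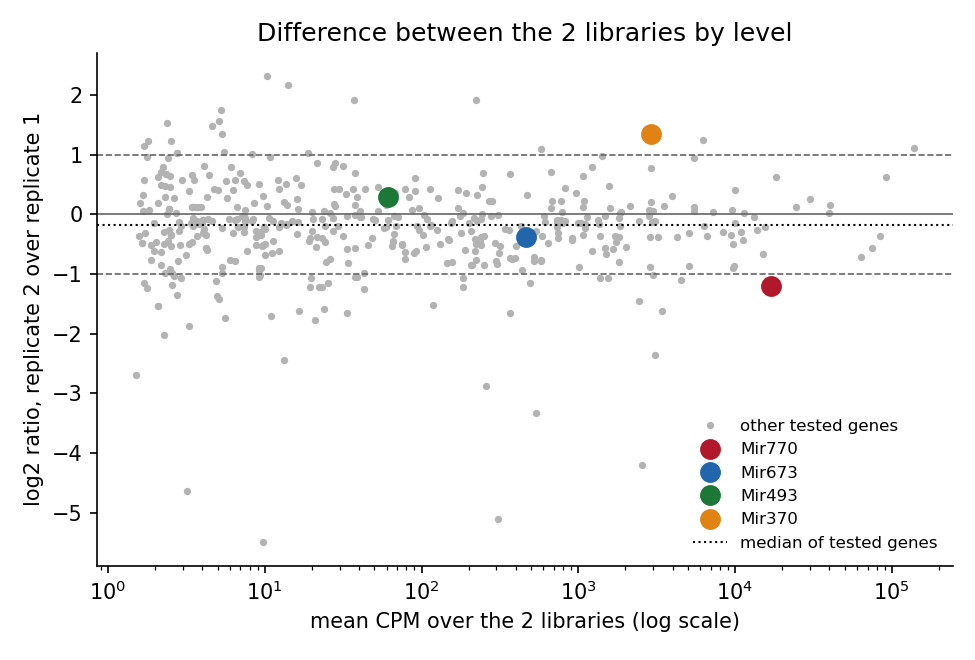
Log2 ratio of replicate 2 over replicate 1 against mean CPM (log scale) for the 466 tested genes, with the 4 genes in colour, dashed lines at 2-fold and a dotted line at the median of all genes (-0.18). Mir770 lies below the lower 2-fold line and Mir370 above the upper one, while Mir673 and Mir493 lie near the bulk of genes.

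Mir493 and Mir370 had positive ratios in a locus where most were negative. Of the 49 tested genes of the locus, 39 had a negative ratio and 10 a positive one on the CPM scale, and 31 negative and 18 positive with TMM. Over all 466 tested genes, 305 were negative and 161 positive on the CPM scale, and 230 negative and 236 positive with TMM. The median log2 ratio of the locus was -0.36 on the CPM scale and -0.16 with TMM. By the exact test on the CPM scale 29 of the 49 were lower, 8 higher and 12 did not pass. Among all 466 tested genes 184 were lower, 84 higher and 198 did not pass. Mir370 was the only one of the 49 past 2-fold higher in replicate 2, under CPM, TMM, DESeq2 size factors and totals without Mir139. Mir770, Mir376b and Mir381 were past 2-fold lower on the CPM scale, and Mir770 alone under the other 3 scalings. Among all tested genes 10.7% were past 2-fold lower and 4.51% past 2-fold higher on the CPM scale. Further microRNA genes inside Rian, Mir341 and Mir1188, chosen after their values were seen, had log2 ratios of -0.66 and -0.82, with 1169 and 24.4 CPM in replicate 2 against 1854 and 43.2 CPM in replicate 1. MicroRNA genes within the bounds of Rian thus had ratios of opposite sign. Whether a Rian transcript spans Mir341 or Mir1188 was not examined.

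Ratios between members within a library do not depend on how libraries are scaled. Mir770 had 2.48 counts per count of Mir370 in replicate 2 (exact 95% interval 2.45 to 2.52) and 14.5 in replicate 1 (14.2 to 14.8), a 5.84-fold difference between the libraries. Mir770 over Mir673 was 25.4 in replicate 2 and 45.2 in replicate 1. Mir370 over Mir673 was 10.2 in replicate 2 (9.82 to 10.7) and 3.12 in replicate 1 (3.00 to 3.24). Mir673 over Mir493, the pair with the smallest spread, was 6.05 in replicate 2 (5.44 to 6.75) and 9.60 in replicate 1 (8.62 to 10.7). In each of these 4 pairs the intervals of the libraries did not overlap, so the proportions among the members differed by more than counting error.

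Marker microRNAs of other cells also differed between the libraries. The 14 neuronal genes, led by Mir132 and Mir128-1, summed to 30465 CPM in replicate 2 and 29428 CPM in replicate 1, with 5 of them higher and 8 lower in replicate 2. Mir128-1 had 8772 CPM in replicate 2 against 3723 CPM in replicate 1, while Mir132 had 12539 CPM in replicate 2 against 15073 CPM in replicate 1. Mir128-1 shares 23 bases with another hairpin, so some of its reads can map to several places. Mir124a-2 had no counts in either library, and Mir124a-1 had 5 counts in replicate 2 and 8 in replicate 1. Each Mir124a copy shares 32 bases with another hairpin, so their reads can map to several places. The 3 oligodendrocyte genes summed to 3193 CPM in replicate 2 against 7078 CPM in replicate 1. Most of that difference lay in Mir219a-2, at 1671 CPM in replicate 2 against 5126 CPM in replicate 1. It shares 22 bases with another hairpin, so some of its reads can map to several places. Mir338 had 1512 CPM in replicate 2 against 1941 CPM in replicate 1. Mir219a-1 had 9.15 CPM in replicate 2 against 10.6 CPM in replicate 1. Endothelial Mir126a had 2897 CPM in replicate 2 against 6191 CPM in replicate 1. The 3 erythrocyte genes had 32.7 CPM in replicate 2 against 73.1 CPM in replicate 1. Mir451a and Mir486 were lower in replicate 2, while Mir144 had 6 counts in each library. The 5 microglial and leukocyte genes summed to 2238 CPM in replicate 2 against 2025 CPM in replicate 1. Of these, 4 were lower in replicate 2 and Mir150 alone was higher, at 1815 CPM in replicate 2 against 1303 CPM in replicate 1. Hepatic Mir122 had 42.0 CPM in replicate 2 against 55.1 CPM in replicate 1. Of 5 muscle genes only Mir206 was counted, at 19.3 CPM in replicate 2 against 32.6 CPM in replicate 1. The other 4, copies of Mir1a and Mir133a, share 28 or 31 bases with another hairpin, so reads of these genes can be in the class given to no gene. The oligodendrocyte, endothelial and erythrocyte sums were lower in replicate 2, like Mir770, as were Mir122 and Mir206. The neuronal sum and the microglial and leukocyte sum were higher in replicate 2. Of all 466 tested genes 65.5% had a negative ratio on the CPM scale, so a lower level in replicate 2 was the common case on that scale. With TMM the share was 49.4%. The part of these cell types in the ratio of Mir770 was not tested. In such tissue libraries, fewer cells of a type and less RNA per cell cannot be told apart. Adapters were trimmed after a different document in each library, per the labels, so that step cannot be told apart from the library either.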

How the data were processed

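The authors deposited, for each library, raw counts of reads, whole numbers per annotated microRNA gene of GENCODE M21 on mm10, per the notes beside the files. Per the labels, RNA shorter than 30 nt was sequenced. For the aligner and counter, nothing is given in the sources used. The 3 count columns without headings were columns 2 to 4, after the identifiers. Column 3, the strand column with the larger total, was taken as sense. The 4 classes of unplaced reads were left out of library sizes. They were 58.7% of reads in replicate 2 and 57.5% in replicate 1.

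From these counts CPM, mean and SD, exact Clopper-Pearson 95% intervals (counting error only) and log2 ratios with 0.5 counts added were computed in Python 3.11.15 with scipy 1.17.1. Fisher exact tests ran across all 466 genes whose mean reached 10 counts, and the test was tried on simulated data. TMM came from edgeR 4.0.16, size factors from DESeq2 1.42.0 and folding energies from RNAfold 2.7.2. All 2202 identifiers matched GENCODE M21. Molecular identifiers are not recorded, so copies made by PCR count as separate reads.

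The 4 genes and the lists were chosen with earlier results of these data known. Named genes were the members, the 2 genes nearest in level to each, the 5 other locus genes with the highest mean, flanking genes, genes sharing a seed and cell-type markers. Alternatives were other scalings, denominators, count filters, the strand-ignoring column and leaving out a library.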

Additional observations from a re-analysis of the deposited data

How the results depend on the processing

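The ratios of Mir770, Mir673, Mir493 and Mir370 kept their direction and their side of the exact test under TMM, DESeq2 size factors, totals without Mir139, counts without strand and no filter on low counts. Mir770 had log2 ratios of -1.21 to -1.0 over these settings, so under TMM it lay close to 2-fold, and Mir370 had 1.34 to 1.54. Mir673 had -0.38 to -0.18 (adjusted p 1.13e-22 to 1.11e-05) and Mir493 0.29 to 0.49 (adjusted p 7.22e-06 to 0.0184). Scaled to all reads of a library the mean levels were 7168 for Mir770, 195 for Mir673, 25.4 for Mir493 and 1204 for Mir370, lower because unplaced reads enter the denominator. With only genes sharing under 18 bases in the denominator Mir770 had 26049, Mir673 709, Mir493 92.5 and Mir370 4383 CPM, and without Mir139 Mir493 had 71.2 CPM. Leaving out a library gave 10303 to 23723 CPM for Mir770, 405 to 525 for Mir673, 54.7 to 66.9 for Mir493 and 1636 to 4150 for Mir370. Genes past 2-fold numbered 71, against 44 at a minimum mean of 50 counts and 243 with no filter. Locus genes past 2-fold lower numbered 3, and 1 under TMM, DESeq2 size factors and totals without Mir139, settings chosen for this count after seeing the data. No paired analysis was possible because there is a single group. With 2 libraries the SD rests on 1 degree of freedom.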
